A study of Mus musculus with 2 samples.

Results

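The miR-128 genes of the mouse are 2 loci, Mir128-1 and Mir128-2, chosen by name among 2202 annotated microRNA (miRNA) genes counted in hippocampus. Both were measured by small RNA sequencing of 2 libraries of 1 group, biological replicates 2 and 1, from female B6CASTF1/J mice aged 2 months. These animals are the first-generation offspring of a cross between a laboratory strain and one derived from Mus musculus castaneus, and no treatment, mutation or other group is named, so the comparisons are those between the loci and between the libraries. The labels hold a tissue record for each replicate and 1 donor record for both, and nothing says whether separate animals were used, so differences between the replicates, and the p-values built on them, may be technical. The labels speak of a layer of the hippocampus and do not say which.

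A miRNA is cut from a hairpin in a longer transcript, and 1 of its arms is loaded into a protein complex that represses messenger RNAs matching its seed, bases 2 to 8. miR-128 is known as an abundant neuronal miRNA of the brain, and its loss from mouse neurons raises their excitability and leads to seizures. Both loci give the same active arm, miR-128-3p, from introns of different genes. In mice, deletion of Mir128-2 is known to lower brain miR-128 more than deletion of Mir128-1 does.

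Mir128-1 (ENSMUSG00000065520.2) lies on the plus strand of chromosome 1 at positions 128202361 to 128202430 of mm10. It sits in intron 19 of 26 of a principal transcript of R3hdm1, a gene of an R3H-domain protein, read in the same direction. That intron is 14107 bases long, and the hairpin starts 5263 bases after the exon before it. Mir128-2 (ENSMUSG00000065441.2) lies on the minus strand of chromosome 9 at positions 112118636 to 112118711, in intron 19 of 20 of a principal transcript of Arpp21, a cAMP-regulated phosphoprotein gene of forebrain neurons, also in the same direction. Its intron is 51873 bases long, and the hairpin lies 471 bases after the exon before it. The hairpin was intronic in each of the 2 R3hdm1 transcripts and each of the 9 Arpp21 transcripts that span it, and neither host gene holds another annotated miRNA gene.

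The hairpins are printed because they show which reads can tell the loci apart, with the longest stretch present in both in capitals (sequences from RefSeq, GRCm38.p6, where both loci were found).
Mir128-1: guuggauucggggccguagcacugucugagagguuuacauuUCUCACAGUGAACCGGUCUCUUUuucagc
Mir128-2: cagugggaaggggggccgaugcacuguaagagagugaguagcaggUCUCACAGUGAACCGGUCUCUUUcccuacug
The shared stretch was 23 bases long and held the whole mature 3p arm, whose 21 bases were identical. Over the full hairpins, of 70 and 76 bases, 55 of 77 aligned positions were identical. RNAfold gave the Mir128-1 hairpin a minimum free energy of -29.3 kcal/mol with 52 paired bases, and the Mir128-2 hairpin -37.3 kcal/mol with 56.

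The mature arms are given with the seed in capitals.
miR-128-3p: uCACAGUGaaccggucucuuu
miR-128-1-5p: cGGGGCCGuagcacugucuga
miR-128-2-5p: gGGGGCCGaugcacuguaagaga
Among 1738 mature entries in the RefSeq table, the seed of miR-128-3p occurred at these 2 loci alone, and so did the seed of the 5p arms. The 5p arms differ outside the seed: over the whole arms, seed included, 16 of 23 aligned positions were identical and the longest stretch in common was 7 bases. A read of 18 or more bases from a 5p arm therefore belongs to 1 of the 2 hairpins. A read of the 3p arm that starts at its first base is the same for both loci at 18 to 21 bases and differs from 22 bases on, by U22C (positions from 1 at the first base of miR-128-3p, the Mir128-1 base first). At 23 bases U23C is added. A shared 3p read of 21 bases that carries an added U at its end would therefore match Mir128-1 in full and Mir128-2 with 1 mismatch. How reads with a mismatch or an untemplated last base were placed is not given in the labels or the deposited notes, and its part in the counts of each locus was not tested.

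The deposited counts assign a gene only to reads with a single place in the genome. Reads with several places were 48.4% of the reads of replicate 2 and 45.9% of those of replicate 1. The levels below therefore describe reads placed at 1 locus and not the total of miR-128-3p. Of all possible 22-base windows, 47 of 49 in the Mir128-1 hairpin and 53 of 55 in the Mir128-2 hairpin were absent from the other, and the 2 remaining windows in each were the same pair. With 1 mismatch allowed, 45 of 49 (91.8%) and 51 of 55 (92.7%) were absent from the other. None of these windows occurred in a transcript of a further gene in the GENCODE M21 set. With windows of 18 bases, 2 of 59 in the Mir128-2 hairpin also occurred in a transcript of a further gene, Rhobtb2. The tables count reads per hairpin, so the share of 5p and 3p reads at each locus is not known.

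**Figure D1:**
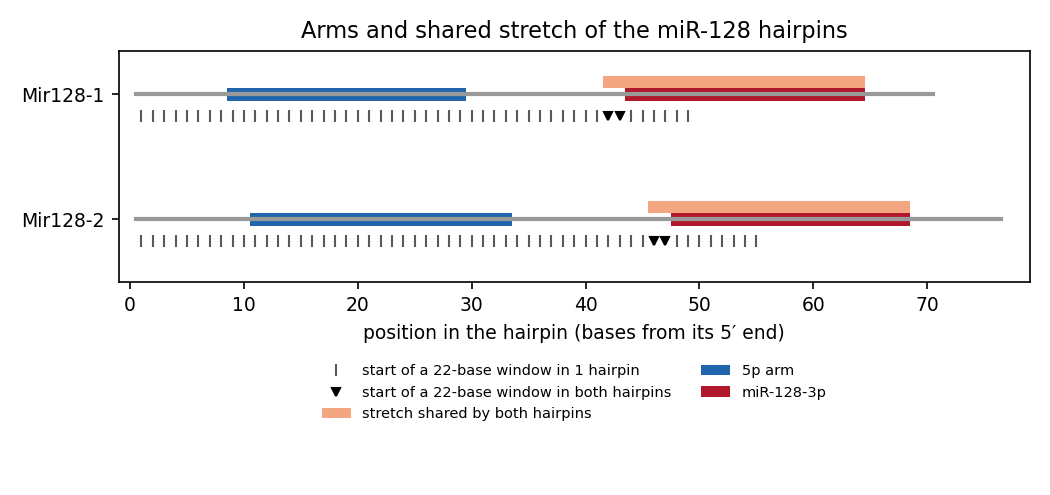
Map of the Mir128-1 hairpin (above) and the Mir128-2 hairpin (below), drawn to scale along the position in bases from the 5′ end. Blue and red boxes are the 5p arm and miR-128-3p, the orange box is the 23-base shared stretch, ticks mark the start of each 22-base window and triangles the 2 windows found in both hairpins.

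Mir128-1 was the more abundant locus in both libraries. It had 66840 sense counts in replicate 2 and 60734 in replicate 1, out of 5979247 and 4517648 sense counts on miRNA genes. Its level was 11179 counts per 1000000 of these counts (CPM) in replicate 2 (95% Wilson interval 11095 to 11263) and 13444 CPM in replicate 1 (13338 to 13550). The mean was 12311 ± 1602 CPM (SD, n = 2), or 1.23% ± 0.160 of the counts. It ranked 18 among all miRNA genes in replicate 2 and 14 in replicate 1.

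Mir128-2 had 15413 counts in replicate 2 and 12177 in replicate 1. Its level was 2578 CPM in replicate 2 (95% Wilson interval 2537 to 2619) and 2695 CPM in replicate 1 (2648 to 2744), with a mean of 2637 ± 83.2 CPM (SD, n = 2). It ranked 59 in replicate 2 and 52 in replicate 1. The levels of the loci did not overlap, the lowest value of Mir128-1 lying above the highest of Mir128-2. Both loci had 0 counts on the antisense strand in both libraries. Together they held 1.38% of the counts in replicate 2 and 1.61% in replicate 1. All intervals given are for counting error alone, because reads copied by amplification are no independent molecules.

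The ratio of the loci is taken within a library, where depth and scaling cancel, and holds for the reads as the authors placed them. Mir128-1 had 4.34 times the counts of Mir128-2 in replicate 2 (95% exact binomial interval 4.26 to 4.41) and 4.99 times in replicate 1 (4.89 to 5.09), a mean of 4.66 ± 0.460 (SD, n = 2). Divided by hairpin length, the ratio of counts per base was 4.71 in replicate 2 and 5.42 in replicate 1. This is no correction of the ratio, since a mature arm is only a part of its hairpin. Of the pair's counts, Mir128-2 held 18.7% in replicate 2 (95% exact binomial interval 18.5 to 19.0) and 16.7% in replicate 1 (16.43 to 16.97). The split differed between the libraries by more than counting error: the log2 ratio of Mir128-1 to Mir128-2 was lower in replicate 2, with a difference of -0.20 (95% interval -0.24 to -0.16; adjusted p = 1.0e-24 by Fisher's exact test, two-sided, on locus and library, adjusted over 20 families). This compares the reads of the libraries, not conditions. Of these 20 families with 2 gene copies, 60.0% passed the threshold of 0.05, so passing it did not set miR-128 apart. The shift was also close to the median size over the 20 families, 0.23 on the log2 scale, and 12 of the other 19 had a larger one.

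**Figure D2:**
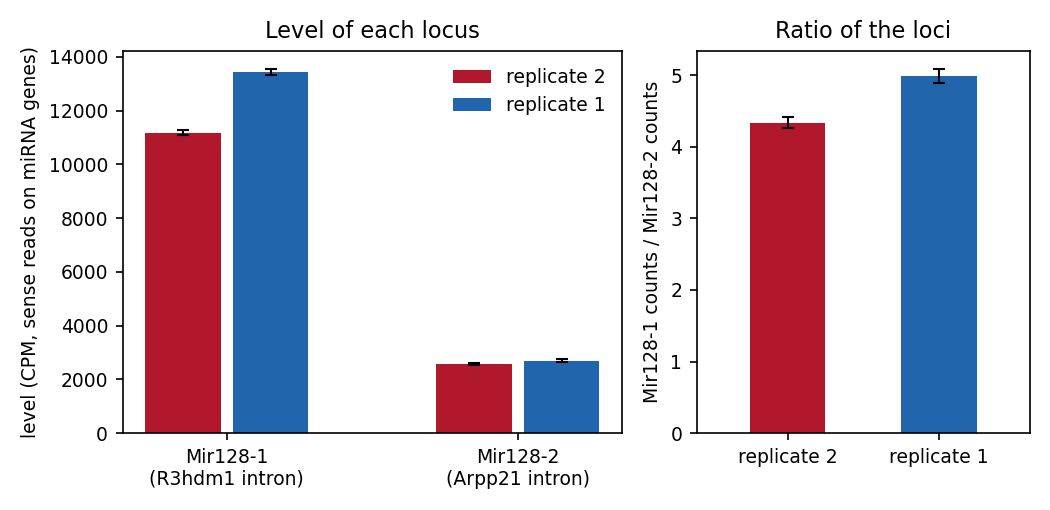
Left, level of each locus in CPM (sense reads on miRNA genes) with 95% Wilson intervals; right, ratio of Mir128-1 to Mir128-2 counts with 95% exact binomial intervals, for replicate 2 (red) and replicate 1 (blue). Mir128-1 stands above Mir128-2 in both libraries, at ratios of 4.34 in replicate 2 and 4.99 in replicate 1.

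The pair was then set beside other miRNA families with a copy numbered 1, a copy numbered 2 and no copy numbered 3. With at least 10 summed counts at the higher locus, 22 other families qualified. miR-128 had the largest summed count of reads placed at 1 locus among these families, 155164 over both loci and libraries. The next, the dendritic miR-138, had 64546. The lower locus of miR-128, Mir128-2 with 27590 summed counts, also exceeded the lower locus of each other family, the next being Mir138-2 with 22065. The ratio of the higher to the lower locus was 4.62 for miR-128 on summed counts and had a median of 6.07 over the other 22. The ratio was smaller in 10 of them and larger in 12, so the imbalance of the miR-128 loci lay in the middle of the range.

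The families nearest in ratio were Mir135a-2 over Mir135a-1 at 5.90, Mir103-2 over Mir103-1 at 6.25 and Mir16-1 over Mir16-2 at 3.21. Each rests on far fewer reads, with 39, 36 and 563 summed counts at the lower locus. The Mir135a ratio was 8.58 in replicate 2 and 3.35 in replicate 1, so in replicate 1 alone it lay below that of miR-128. The largest ratios were 374 for Mir194-2 over Mir194-1, whose lower locus had 1 count (95% exact binomial interval 66.7 to 14811), 301.8 for the oligodendrocyte gene Mir219a-2 over Mir219a-1, and 73.9 for Mir181b-2 over Mir181b-1. The windows that tell the copies apart were counted for the miR-128 hairpins and not for the other families. Their part in these ratios, and in the order of the families by summed count, was not tested.

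**Figure D3:**
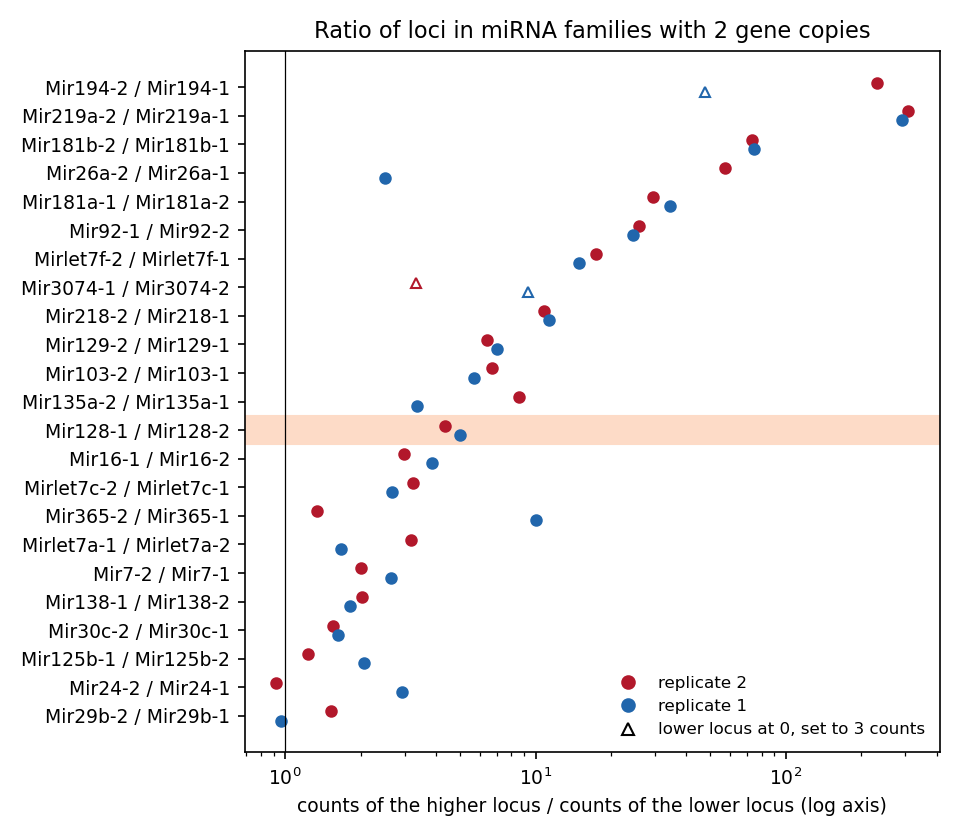
Counts of the higher locus divided by counts of the lower locus on a log axis, for 23 families with 2 gene copies, in replicate 2 (red) and replicate 1 (blue); open triangles have a lower locus at 0, set to 3 counts. The miR-128 pair (shaded row) lies mid-range, with 12 families above it and 10 below by summed counts.

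Between the libraries, both loci were lower in replicate 2, Mir128-1 by more. Each of the 420 genes that reached 10 counts in both libraries was tested against the remaining miRNA counts with Fisher's exact test, two-sided, with Benjamini-Hochberg adjustment. Mir128-1 fell in replicate 2, with a log2 ratio of replicate 2 to replicate 1 of -0.27 (95% exact binomial interval -0.28 to -0.25; adjusted p = 2.2e-238 by Fisher's exact test). Mir128-2 had a log2 ratio of -0.06 (-0.10 to -0.03; adjusted p = 5.3e-04 by Fisher's exact test). That call was lost with TMM scaling (log2 ratio -0.027, adjusted p = 0.193 by the exact binomial test) and with DESeq2 size factors (-0.021, adjusted p = 0.324), while Mir128-1 stayed lower with both.

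Of all 420 genes tested 56.9% passed the threshold, 29.8% as lower in replicate 2, and 94.6% of the 93 genes at a mean of 1000 CPM or more passed. Passing is therefore the usual outcome for genes as deeply counted as the miR-128 loci. The size of the change was ordinary for Mir128-1 and small for Mir128-2. The median size of the log2 ratio was 0.30 over all tested genes, and 228 genes moved more than Mir128-1 and 376 more than Mir128-2. Among the 93 genes at a mean of 1000 CPM or more the median size was 0.26. Of these, 43 moved more than Mir128-1 and 84 more than Mir128-2.

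**Figure D4:**
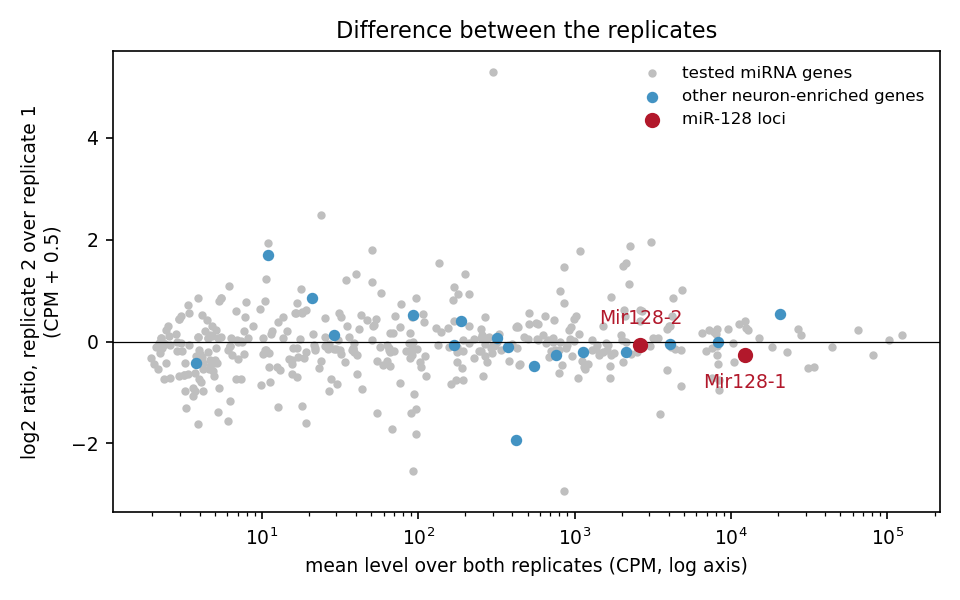
Log2 ratio of replicate 2 to replicate 1 against the mean level in CPM (log axis) for 420 tested miRNA genes (grey), with the other tested neuron-enriched genes in blue and the miR-128 loci in red. Mir128-1 at -0.27 and Mir128-2 at -0.06 lie within the main cloud.

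By mean level Mir128-1 ranked 17 of all miRNA genes, between Mir22 at 12364 ± 2458 CPM (SD, n = 2) and Mir151 at 11188 ± 1871 CPM. These neighbours do not differ from it beyond their spread, and the order turned between the libraries. In replicate 2 both stood above Mir128-1, at 14102 and 12511 CPM, and in replicate 1 both stood below it, at 10626 and 9865 CPM. Mir128-2 ranked 54, between Mir676 at 2681 ± 784.5 CPM and Mir27b at 2624 ± 780.0 CPM, and the same turn was seen: Mir676 and Mir27b reached 3236 and 3176 CPM in replicate 2, against 2126 and 2073 CPM in replicate 1.

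The genes most like each locus were those at the smallest distance in log2(CPM + 0.5) over the 2 libraries, a likeness of level only, since 2 points cannot show a shared pattern. For Mir128-1 they were Mir330 (distance 0.35), Mir191 (0.37) and the endothelial Mir126a (0.38). Of these, Mir330 was lower in replicate 2, as Mir128-1 was, with a log2 ratio of -0.39, while Mir191 and Mir126a were higher at 0.24 and 0.27. For Mir128-2 they were Mir369 of the imprinted Dlk1-Dio3 region (0.14), Mir107 (0.27) and Mir7b (0.31), with log2 ratios of -0.20, -0.08 and -0.23.

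Among 23 genes known as neuron-enriched, Mir128-1 ranked 2 and Mir128-2 ranked 5 by mean level. Both ranks, and the shares below, count only reads with a single place in the genome. They do not compare the total levels of miRNAs with several gene copies, such as miR-124 and miR-9. The activity-induced Mir132 led, with 24242 CPM (replicate 2) and 16627 CPM (replicate 1). Mir137, a regulator of neuronal maturation, lay between the loci with 8274 CPM (replicate 2) and 8278 CPM (replicate 1), and so did Mir138-1, known from rat neurons to limit dendritic spine size, with 3992 CPM (replicate 2) and 4119 CPM (replicate 1). The miR-128 loci made up 24.6% of the list's summed level in replicate 2 and 31.1% in replicate 1. Of the 19 list genes tested, 5 were higher and 9 lower in replicate 2 and 5 did not pass, beside the 56.9% of all tested genes that passed (114 higher and 125 lower). The balance turned with TMM and with DESeq2 size factors, each of which gave 7 higher and 6 lower. Over all 420 tested genes it turned too, to 122 higher and 114 lower (TMM) and 125 higher and 113 lower (DESeq2 size factors). The list's median log2 ratio was -0.06, which is the value of Mir128-2 itself, against -0.07 over all 420 tested genes. Both miR-128 loci belong to the list and are counted among its 9 lower genes.

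Markers of other cell types were present beside the neuronal ones. The 12 neuronal marker genes held 5.24% of counts in replicate 2 and 4.75% in replicate 1, although the miR-124 genes had at most 13 counts in a library. Reads with several places in the genome carry no gene here, so these low counts do not give the total of miR-124. The oligodendrocyte, astrocyte-associated, microglial, and endothelial and mural markers held from 0.206% to 2.23% in replicate 2 and from 0.176% to 1.92% in replicate 1. The choroid plexus marker Mir204 held 0.115% in replicate 2 and 0.0842% in replicate 1, and the red cell markers 0.0121% and 0.00733%. The markers of tissues outside the forebrain held 0.00360% in replicate 2 and 0.00432% in replicate 1, with 1 of 4 at no count in either library. Mir122 made up nearly all of this, with 215 counts in replicate 2 and 187 in replicate 1. The others had 0 counts in replicate 2 and at most 7 in replicate 1. Apart from the markers outside the forebrain, the summed level of each of these lists was higher in replicate 2. Both miR-128 loci were lower there, but the call of Mir128-2 was lost with TMM and with DESeq2 size factors. The part of these lists in the difference of the miR-128 loci was not tested. Single genes carried some of these sums. Without Mir132, an alternative chosen after seeing the data, the neuronal markers held 2.81% in replicate 2 and 3.09% in replicate 1. Both miR-128 loci are among these markers and made up 26.3% of the full list's summed level in replicate 2 and 34.0% in replicate 1. The neuronal sums are therefore not separate from the miR-128 levels. The median log2 ratio was -0.02 for the tested neuronal markers and -0.15 for the microglial ones, where Mir142, Mir155 and Mir223 did not pass the test. Of the oligodendrocyte markers Mir338 was lower in replicate 2, with a log2 ratio of -0.10, and Mir219a-2 higher, with 0.41. A technical difference, fewer neurons and less miR-128 per neuron cannot be told apart with 2 libraries of bulk tissue.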

How the data were processed

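The authors deposited a table of raw counts for each library, without pooling or normalization; the deposited notes name mm10 and GENCODE M21. The aligner, its settings, trimming and the mapping of castaneus alleles to the C57BL/6J genome cannot be stated (not given in the sources used here). The sense column, the strand column with the larger total, was used, without the 4 leading lines that sum reads without a gene. Sense reads on miRNA genes were 36.7% of replicate 2 and 38.7% of replicate 1. A count of 0 allows up to 3 counts, 0.502 CPM in replicate 2 and 0.664 CPM in replicate 1.

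All 2202 identifiers were found in GENCODE M21. Log2 ratios between libraries used CPM with a pseudocount of 0.5, and the interval of the difference in split is a normal approximation. With 1 group, edgeR's quasi-likelihood test has no contrast, so Fisher's exact test (scipy 1.17.1) was used. It was tried on simulated counts with counting error alone, which cannot show how it behaves with further spread between libraries. TMM factors came from edgeR 4.0.16, size factors from DESeq2 1.42.0 and structures from ViennaRNA 2.7.2. Windows, planned against the genome, were searched on both strands of GENCODE M21 transcripts.

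The members and lists were chosen with earlier results of these data known. Named genes were the members, their neighbours in rank, the 3 nearest in level, the 4 most abundant neuron-enriched genes, the 3 families nearest to the pair in ratio and the 3 with the largest ratio; others were named after their values were seen. Alternatives were the unstranded column, other minimum counts, pseudocounts, scalings, denominators and windows, a library thinned to 4517648 counts, and leaving out each replicate. Levels per 1000000 reads of any kind and families limited to an identical mature sequence were added after seeing the data.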

Additional observations from a re-analysis of the deposited data

How the results depend on the processing

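Of 116 alternative values, 102 were classed as unchanged, for keeping their direction and side of the threshold or moving by less than the spread. Some of these could not have changed, since pseudocounts do not enter Fisher's exact test and minimum counts leave the log2 ratios of the loci as they are. The 102 also include the neuron-enriched counts with TMM and with DESeq2 size factors, whose balance turned. They are therefore no measure of robustness. Without the most abundant gene in the denominator, the mean level was 14049 CPM for Mir128-1 and 3010.0 CPM for Mir128-2, and per 1000000 reads of any kind it was 4656 and 995.3. With the unstranded column, Mir128-2 stood at 2856 CPM, and the ranks were 14 for Mir128-1 and 48 for Mir128-2. Both loci had the same counts in that column as in the sense column, so only the other genes and the total changed. Mir126a, for example, had 81261 sense counts and 0 unstranded counts in replicate 2. Leaving out each replicate in turn gave ranks of 14 to 18 and of 52 to 59, and log2 ratios of the loci of 2.12 to 2.32. The lower level of Mir128-2 in replicate 2 did not pass with TMM (log2 ratio -0.027) or DESeq2 size factors (log2 ratio -0.021); over all alternatives its adjusted p ran from 3.3e-15 to 0.324 by exact tests. Windows of 24 bases were absent from the other hairpin in 100% of cases at both loci. At a minimum of 100 counts, 3 neuron-enriched genes were higher in replicate 2, since fewer genes were tested. Except where stated, the cause was not tested. No paired analysis was possible because the series holds 1 group. The deposited counts limit the ratio of the loci to reads placed at 1 locus, and 2 libraries limit its error.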

Other observations

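The miR-27 genes carry a seed that overlaps that of miR-128-3p by an offset of 1 base: bases 3 to 8 of miR-27 are bases 2 to 7 of miR-128-3p. The pair is printed to show this offset, with bases 2 to 8 in capitals.
miR-27a-3p: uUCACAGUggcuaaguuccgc
miR-27b-3p: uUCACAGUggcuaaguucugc
Mir27b was counted 18988 times in replicate 2 and 9363 times in replicate 1, a mean of 2624 ± 780.0 CPM (SD, n = 2), next to Mir128-2 in level. Mir27a was lower, with 1148 counts in replicate 2 and 657 in replicate 1, or 168.7 ± 32.9 CPM. Both were higher in replicate 2. The log2 ratio was 0.62 for Mir27b (adjusted p = 2.1e-260 by Fisher's exact test) and 0.40 for Mir27a (adjusted p = 2.8e-08 by Fisher's exact test). Both miR-128 loci were lower there, but the call of Mir128-2 was lost with TMM and with DESeq2 size factors. The miR-27 genes were named after their sequences and values were seen, and the difference between them and the miR-128 genes was not tested.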
